A study of Mus musculus with 8 samples.

Results

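The 6 galectin genes Lgals1, Lgals3, Lgals4, Lgals7, Lgals8 and Lgals9, and Lgals3bp, which encodes a galectin-binding protein, were followed in CT26 cells, a mouse colon carcinoma line. They were chosen by symbol and are 7 of the 26642 rows of the count table. All 7 passed the filter on low counts, Lgals4 only through its knockout libraries. Cells with a knockout of Tead1 and Tead4 (Tead1/4 KO, 4 libraries) were set against unedited CT26 cells (WT, 4 libraries), all grown in the same serum-containing medium. Both targeted genes encode TEAD transcription factors, through which the Hippo pathway's coactivators YAP and TAZ reach DNA. The labels do not give whether the knockout cells are 1 clone, which part of each gene was edited or whether replicates are separate cultures. The p-values therefore reflect no more than library-to-library spread, part of which may be technical.

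Galectins are small lectins that bind β-galactosides, above all N-acetyllactosamine on the glycans of surface and matrix proteins. They are made in the cytosol and leave the cell without a signal peptide. Galectin-1 and galectin-7 carry a single carbohydrate-recognition domain, galectin-3 joins its domain to a self-associating tail, and galectin-4, galectin-8 and galectin-9 carry a pair of domains in 1 chain. Outside the cell they crosslink glycoproteins and act on immune cells, and inside it several of them mark damaged lysosomes and endosomes. Galectin-4 is known as a galectin of the gut epithelium and galectin-7 of stratified epithelia. Lgals3bp encodes a secreted, heavily glycosylated scavenger-receptor protein bound by galectin-1 and galectin-3, and both Lgals3bp and Lgals9 are known to respond to interferon.

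Total counts per library lay between 29679405 and 32774905. Tead1 and Tead4 mRNA was reduced but still detected in knockout cells, with Tead1 at 67.5 ± 12.4 CPM against 206 ± 80.8 CPM in WT (SD, n = 4 each) and Tead4 at 29.3 ± 6.08 CPM against 47.8 ± 12.3 CPM. CPM here are counts scaled to a common library size with the TMM factors of edgeR, and log2 fold changes are knockout minus WT, with adjusted p-values from edgeR's two-sided quasi-likelihood test over all rows. Both genes passed that test (adjusted p = 0.00217 and 0.0261), but the Tead4 call was lost without knockout replicate 2 or 3 or WT replicate 1 or 4. Upper-quartile scaling also ended it (adjusted p = 0.0692), as did library size as the sole scaling (0.0800) and summing WT replicates 1 and 4, and 2 and 3 (0.0653). The Tead1 groups did not overlap. For Tead4 they did, with knockout replicate 4 at 37.0 CPM and WT replicate 2 at 36.7 CPM (exact two-sided permutation p = 0.0571). Of 9 epithelial markers, Epcam had 0 counts in every library and Cdh1 at most 5, whereas Krt18 and Krt20 were detected. Krt18 was higher in the knockout libraries, at 76.3 CPM against 38.5 CPM in WT (edgeR adjusted p = 0.00107), and the list summed to 105 to 143 CPM in the knockout libraries against 56.8 to 106 CPM in WT. Of 10 leukocyte and macrophage markers, Cd3e, Adgre1 and Tyrobp were at 0 in all libraries and Ptprc had at most 3 counts. Cd68, Lyz2 and Cd74 were higher in the knockout libraries, and the summed level of that list was 21.9 to 30.2 CPM there against 2.39 to 5.26 CPM in WT. Of 10 fibroblast and mesenchymal markers, 7 were tested, and Col3a1, Dcn, Pdgfra and Pdgfrb were higher in the knockout libraries, with a summed level of 4039 to 6122 CPM against 3853 to 5501 CPM. The 5 endothelial markers summed to at most 0.520 CPM in any library. The part of these marker levels in the members' values was not tested. In bulk RNA, fewer cells of a type and less RNA per cell cannot be told apart.

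The stretches before the RefSeq start of each gene are shown for the members that passed the test and for Lgals9. They were chosen because interferon response genes rose in the same libraries and some members are known to respond to interferon. Of the 7 members, 6 matched an entry of the RefSeq promoter table (GRCm38.p6), all but Lgals1, each with 250 bases before to 50 after the start. The patterns searched, on both strands, were the interferon element (a pair of GAAA with 2 free bases between them) and CATTCC for the TEAD element. They were found in 3.44% and 14.7% of all 32851 promoter entries. Only Lgals9 among the 6 held a match to either, and it held the interferon element at 2 places, both on the strand opposite to the gene, at bases -55 to -46 and 16 to 25 counted from the start. None of the 6 windows held the letters of the TEAD element. Only exact matches to the patterns were counted, and near matches were not sought in any member. The gene coordinates given below (GENCODE M21) start farther upstream for Lgals7, Lgals3bp and Lgals8, so their stretches lie inside those genes. For Lgals9 they also start farther upstream, at 78984946, so the end of its stretch lies inside the gene. Its match at -55 to -46 lies before the GENCODE start as well, but both positions given are counted from the RefSeq start. The Lgals3 window searched, from 47373610 to 47373909, likewise lies inside its gene. Windows set on the GENCODE starts were not searched. The lines give the 120 bases before the RefSeq start, 5′ to 3′ on the gene's strand, with the match in capitals.
Lgals4 (chr7:28833674-28833793, plus strand): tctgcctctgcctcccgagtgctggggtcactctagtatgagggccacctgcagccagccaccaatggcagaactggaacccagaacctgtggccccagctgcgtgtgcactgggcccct
Lgals7 (chr7:28864266-28864385, plus strand): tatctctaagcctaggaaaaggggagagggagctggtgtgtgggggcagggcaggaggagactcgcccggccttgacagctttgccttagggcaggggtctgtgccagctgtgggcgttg
Lgals3bp (chr11:118401960-118402079, minus strand): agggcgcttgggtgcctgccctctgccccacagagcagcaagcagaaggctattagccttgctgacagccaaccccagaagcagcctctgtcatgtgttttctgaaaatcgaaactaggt
Lgals8 (chr13:12461739-12461858, minus strand): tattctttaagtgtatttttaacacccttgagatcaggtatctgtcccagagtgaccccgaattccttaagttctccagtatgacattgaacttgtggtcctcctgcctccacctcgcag
Lgals9 (chr11:78984925-78985044, minus strand): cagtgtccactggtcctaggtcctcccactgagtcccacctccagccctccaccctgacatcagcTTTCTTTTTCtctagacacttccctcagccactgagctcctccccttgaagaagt

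Lgals1 was by far the most abundant member in both genotypes once counts were divided by gene length. It averaged 1786.5 ± 936.2 CPM per kb of merged exon in the knockout libraries and 1675 ± 389.9 in WT (SD, n = 4 each), and made up 84.1 ± 3.73% and 87.8 ± 2.20% of the summed length-corrected level of the 7 genes. Lgals3 followed at 143 ± 35.2 CPM per kb in the knockout libraries and 119 ± 27.8 in WT, 12.5-fold and 14.1-fold below Lgals1. Next came Lgals3bp in both genotypes, at 71.04 ± 11.6 CPM per kb in the knockout libraries and 45.3 ± 7.42 in WT, and then Lgals9, at 43.5 ± 10.1 and 36.7 ± 12.5. Those 2 genes did not overlap in the knockout libraries, but in WT their ranges overlapped and Lgals3bp was the higher in 3 of 4 libraries. Lgals7 and Lgals8 changed places: Lgals7 stood at 24.5 ± 5.92 CPM per kb and Lgals8 at 20.7 ± 2.68 in the knockout libraries, against 11.6 ± 4.79 and 14.3 ± 2.54 in WT. The ranges of these neighbours overlapped in both genotypes, so neither order was resolved. Lgals4 was the lowest in every library, at 2.60 ± 1.48 CPM per kb in the knockout libraries and 0.0971 ± 0.0487 in WT.

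**Figure D1:**
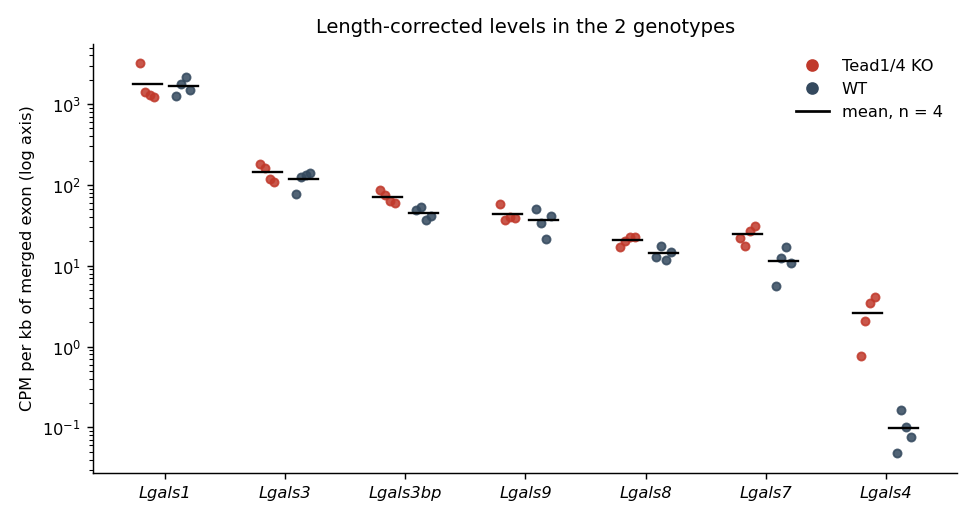
Level of each gene in CPM per kb of merged exon (log axis), with each library as a point, Tead1/4 KO in red to the left of WT in dark blue, and the mean of 4 libraries as a line. Lgals1 lies at 1223 CPM per kb or more in all libraries and Lgals4 at 4.08 or less, and Lgals4 shows the widest gap between the genotypes.

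Of the 7 members, 4 were higher in the knockout libraries and 0 were lower at an adjusted p under 0.05, where 20.9% of the 13265 rows tested were higher and 20.6% lower, and 41.6% changed in all. The median log2 fold change was 0.53 over the 7 members and 0.02 over all rows tested. The scaling set the balance of all calls: 50.4% were on the higher side under TMM, but 64.6% under upper-quartile factors and 63.5% under library size only, both of which moved the median of all rows to 0.20. The 4 members called, Lgals3bp, Lgals4, Lgals7 and Lgals8, were on the higher side in every setting that gave them a value. The 4 knockout values lay wholly above the 4 WT values for 3 members, Lgals3bp, Lgals4 and Lgals7, where 21.1% of all rows did so and 40.7% were separated in either direction. Lgals4, part of both counts, entered the test only because it was high in the knockout libraries. The WT libraries form close pairs, replicate 1 with 4 and replicate 2 with 3. With each pair summed into 1 library, only Lgals4 of the 7 was called. The share of all rows called then fell to 21.8% of 14382, so the loss was not particular to the members. With 4 libraries against 4, the exact two-sided permutation test over 70 assignments cannot go below 0.0286.

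Lgals4 showed the largest difference of the 7. The gene (ENSMUSG00000053964; GRCm38 chromosome 7, 28833854 to 28841708, plus strand, protein coding) had 1.77, 4.81, 8.06 and 9.44 CPM in knockout replicates 1 to 4, against 0.110, 0.375, 0.236 and 0.177 CPM in WT replicates 1 to 4. Every knockout library lay above every WT library, and knockout replicate 1 was the lowest of its group. The WT values rest on 3, 11, 7 and 5 counts and the knockout values on 56, 158, 277 and 309. Only WT replicate 2 exceeded the minimum count of 10, so the gene passed the filter through its knockout libraries. The ratio of the mean CPM was 26.8 and the log2 fold change 4.71 (SE 0.61, edgeR adjusted p = 0.00084, exact two-sided permutation p = 0.0286, the smallest possible). The call held with each of the 8 libraries left out in turn, with a log2 fold change between 4.42 and 5.06. Even so, Lgals4 made up 0.159 ± 0.112% of the summed length-corrected level of the 7 genes in the knockout libraries and 0.00500 ± 0.00213% in WT. Some mouse strains carry a near-identical copy of this gene, Lgals6, for which the count table holds no row. The counting of reads shared by such copies is not described in the labels, so the level is uncertain to that extent.

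Lgals7 rose by a factor of 2.11. The gene (ENSMUSG00000053522; chromosome 7, 28863853 to 28866284, plus strand) had 20.3, 16.4, 25.2 and 28.9 CPM in knockout replicates 1 to 4, against 5.26, 11.7, 16.0 and 10.1 CPM in WT replicates 1 to 4. The groups did not overlap, but knockout replicate 2 and WT replicate 3 nearly met, at 16.4 and 16.0 CPM. The mean was 22.7 ± 5.49 CPM in the knockout libraries and 10.8 ± 4.44 CPM in WT (SD, n = 4 each), a log2 fold change of 1.08 (SE 0.32, edgeR adjusted p = 0.0223, exact permutation p = 0.0286). The call was lost without knockout replicate 3 (adjusted p = 0.0562), knockout replicate 4 (0.0622) or WT replicate 4 (0.0611), and with the close WT pairs summed (0.0545).

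Lgals4 and Lgals7 lie on the same strand of chromosome 7 with 22.1 kb between them. Within 50 kb of the pair the table holds 6 further genes, of which 5 were tested, a neighbourhood chosen after the values of the pair were seen. Of those 5, 2 were higher, 2 were lower and Sirt2 did not pass, where 20.9% of all rows were higher and 20.6% lower. Ech1, which encodes an enzyme of fatty acid oxidation and lies between Hnrnpl and Lgals4, stood at 91.6 ± 3.82 CPM in the knockout libraries and 43.1 ± 13.04 CPM in WT (log2 fold change 1.09, SE 0.21, edgeR adjusted p = 0.00405). Actn4, an actin crosslinker on the far side of Lgals7 and on the opposite strand, stood at 575 ± 107 CPM against 1284 ± 343 CPM (log2 fold change -1.16, edgeR adjusted p = 0.00491). The other 2 calls were Rinl (1.71), lost without knockout replicate 2 or 3 or WT replicate 1 or 4 and with the replicate block (adjusted p = 0.0519), and the splicing factor gene Hnrnpl (-0.64), lost without knockout replicate 2, 3 or 4. Both were lost with the close WT pairs summed (adjusted p = 0.0981 and 0.0947).

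Lgals3bp, the galectin-binding protein gene, rose by a smaller factor with little spread. The gene (ENSMUSG00000033880; chromosome 11, 118392751 to 118402092, minus strand) had 243, 214.5, 179 and 173 CPM in knockout replicates 1 to 4, against 138, 154, 106 and 118 CPM in WT replicates 1 to 4. No knockout library reached down to the highest WT library. The ratio of means was 1.57 and the log2 fold change 0.65 (SE 0.17, edgeR adjusted p = 0.0142, exact permutation p = 0.0286), and the call held with each library left out in turn (0.53 to 0.74). It was lost with the close WT pairs summed (0.62, adjusted p = 0.0729).

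Lgals8, whose product is known for binding glycans exposed on ruptured vesicles, was called with the smallest change of the 4. The gene (ENSMUSG00000057554; chromosome 13, 12439415 to 12464944, minus strand) had 63.2, 73.8, 83.1 and 84.6 CPM in knockout replicates 1 to 4, against 47.7, 65.2, 43.9 and 54.6 CPM in WT replicates 1 to 4. The groups overlapped, since WT replicate 2 lay above knockout replicate 1. The log2 fold change was 0.53 with an SE of 0.17 (edgeR adjusted p = 0.0293), while the exact permutation p was 0.0571. The call was lost without knockout replicate 2, 3 or 4 or WT replicate 1, 3 or 4, with adjusted p between 0.0575 and 0.0831. It was also lost with the replicate number as a block (adjusted p = 0.0538) and with the close WT pairs summed (0.0923). Of its 3688 merged exon bases, 155 are shared with exons of Heatr1 on the other strand, so reads there cannot be assigned if strand was not used. Heatr1 itself fell, to 69.9 ± 9.31 CPM in the knockout libraries against 154 ± 7.07 CPM in WT (edgeR adjusted p = 0.000618).

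**Figure D2:**
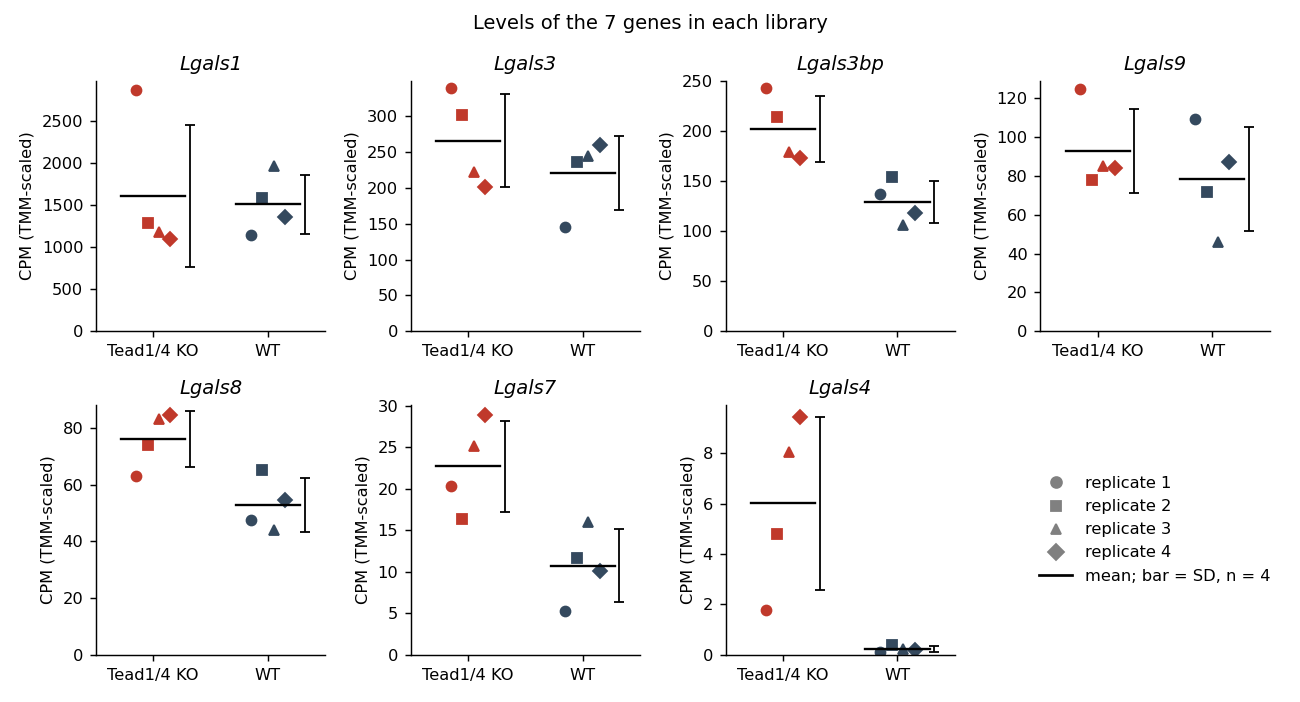
TMM-scaled CPM of each gene in every library, Tead1/4 KO left of WT, with marker shape for the replicate number, a line for the mean and a bar for the SD (n = 4). Knockout replicate 1 stands high for Lgals1 and Lgals9 and low for Lgals4, and the genotypes do not overlap for Lgals3bp, Lgals7 and Lgals4.

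The 2 most abundant members and Lgals9 did not pass the test. Lgals1 (ENSMUSG00000068220; chromosome 15, 78926725 to 78930465, plus strand) had 2876, 1288, 1185 and 1104 CPM in knockout replicates 1 to 4, against 1142, 1584, 1966 and 1359 CPM in WT replicates 1 to 4. Knockout replicate 1 was higher than any other library, and the other 3 knockout libraries lay within or below the WT range. The log2 fold change was 0.09 with an SE of 0.33 (edgeR adjusted p = 0.841). Without knockout replicate 1 it was -0.36 (adjusted p = 0.184), and without WT replicate 1 it was -0.025 (adjusted p = 0.966), so its direction rested on single libraries.

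Lgals3, a galectin of macrophages and epithelia that also acts inside the cell, was likewise not called. The gene (ENSMUSG00000050335; chromosome 14, 47367751 to 47386160, plus strand) had 339, 301, 222 and 201 CPM in knockout replicates 1 to 4, against 145, 236, 245 and 260 CPM in WT replicates 1 to 4. The groups overlapped, with WT replicate 1 below all others. Its log2 fold change was 0.26 with an SE of 0.23 (edgeR adjusted p = 0.375). Lgals9 (ENSMUSG00000001123; chromosome 11, 78962974 to 78984946, minus strand) had 125, 77.8, 85.1 and 84.0 CPM in knockout replicates 1 to 4, against 109, 71.5, 45.8 and 87.2 CPM in WT replicates 1 to 4. The WT libraries alone spanned more than a factor of 2, which covered 3 of the 4 knockout values. The log2 fold change was 0.25 with an SE of 0.26 (edgeR adjusted p = 0.469), and it lay between 0.04 and 0.44 with 1 library left out.

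**Figure D3:**
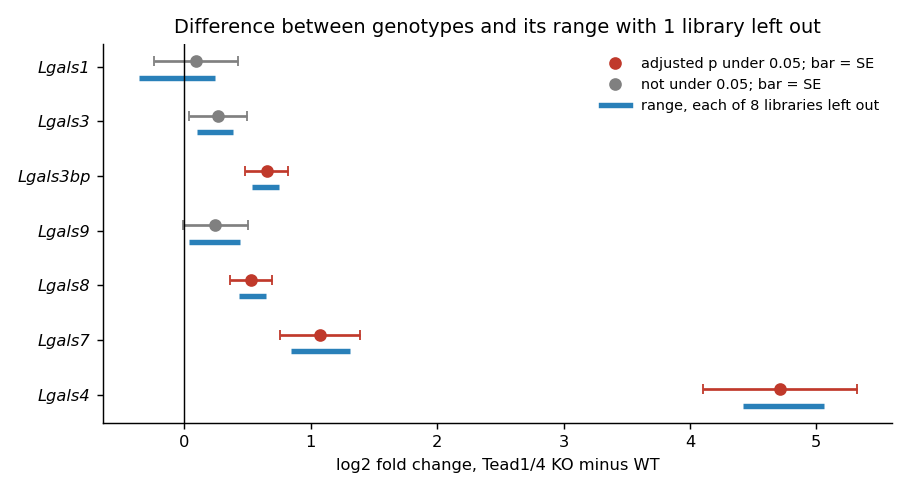
Log2 fold change of each gene (Tead1/4 KO minus WT) with its SE, red where the edgeR adjusted p was under 0.05 and grey where it was not, over a blue bar for the range when each of the 8 libraries was left out. The range crosses 0 for Lgals1 and stays above 4 for Lgals4.

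The members varied in opposed ways among the knockout libraries. From the highest to the lowest value, Lgals1, Lgals3 and Lgals3bp all ran through replicates 1, 2, 3 and 4, and Lgals4 and Lgals8 ran through them in the reverse order. Knockout replicate 1 was the highest of its group for 4 members (Lgals1, Lgals3, Lgals3bp and Lgals9) and the lowest for 2 (Lgals4 and Lgals8). On the log2(CPM + 0.5) scale it deviated from the knockout mean by 0.95 for Lgals1 and by -1.32 for Lgals4. Knockout replicate 1 also stood apart from the other knockout libraries elsewhere: it had 14345 rows with a count, against 17759 to 17948 in those. The WT libraries had 14566 to 15430, so knockout replicate 1 was nearer to WT by this measure. Its mean log2 level of 10 G2/M genes, relative to the mean of all 8 libraries, was 0.51, against -0.80, -1.58 and -1.90 in knockout replicates 2 to 4 and 0.89 to 1.10 in WT. The part of that difference in the members' spread was not tested. In WT, replicates 1 and 3 lay farthest apart for Lgals9 (0.54 and -0.70) and, with the sign turned, for Lgals7 (-0.87 and 0.65).

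**Figure D4:**
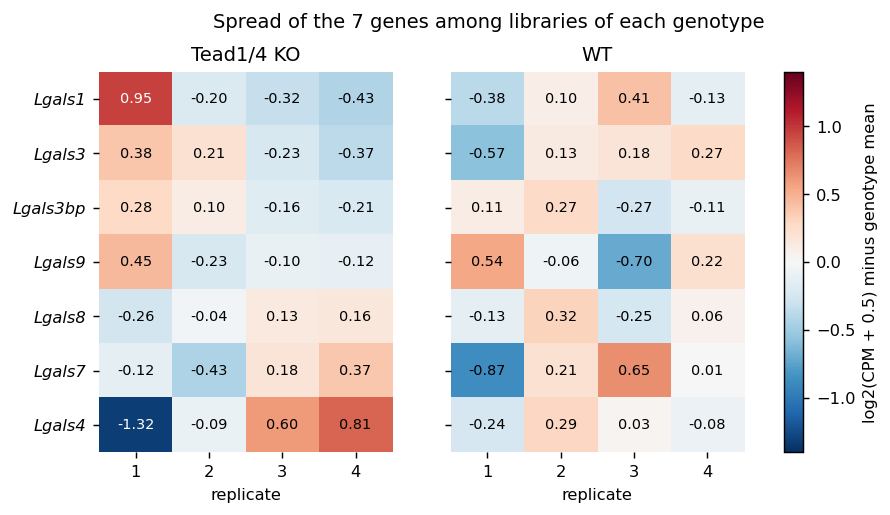
Deviation of each library from the mean of its own genotype in log2(CPM + 0.5), Tead1/4 KO at left and WT at right, with red above and blue below that mean. In the knockout column for replicate 1, Lgals1 is at 0.95 and Lgals4 at -1.32.

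The mean log2 level of 14 interferon response genes, relative to all 8 libraries, was 1.09, 1.31, 1.60 and 1.65 in knockout replicates 1 to 4 and -1.98, -0.29, -1.05 and -2.33 in WT replicates 1 to 4. The 14 genes were listed with earlier results of these data known. All 14 were called higher, where 20.9% of all rows were, with a median log2 fold change of 2.66. Beside this, Lgals3bp differed by 0.65 and Lgals9 by 0.25. Whether either gene follows the interferon level was not tested. Every knockout library lay above every WT library in that level, as for Lgals3bp, so genotype and interferon level cannot be told apart. Across knockout replicates 1 to 4, Lgals3bp had its highest value where the interferon level was lowest and its lowest where that level was highest. In WT, replicate 2 was highest for both, but replicate 3, next in interferon level, was lowest for Lgals3bp, at 106 CPM. Lgals9 had its highest WT value in replicate 1, at 109 CPM, and its lowest in replicate 3.

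For the members called with a change of at least 1 on the log2 scale, the 4 rows with the most similar profile over the 8 libraries were sought among 9561 named genes with at least 5 CPM on average. Likeness was the root mean square difference between profiles of log2(CPM + 0.5), each centred on its own mean. For Lgals4 they were Mustn1 (0.28), Gfra4 (0.33), Kdm7a (0.34) and Txnip (0.34). Their log2 fold changes were 2.83, 3.72, 2.73 and 2.52, below the 4.71 of Lgals4. The added 0.5 CPM exceeds the WT values of Lgals4 and so narrows its difference on this scale. Txnip, which encodes a thioredoxin-binding arrestin, stood at 635 CPM in the knockout libraries and 110.3 CPM in WT. For Lgals7 they were Cdk5rap3 (0.17), Adck2 (0.25), Rpl9 (0.25) and Tmem203 (0.25). Genes that differ between genotypes to a like degree are close by this measure whatever else they share.

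Of 5 further genes of the galectin family, 4 were in the table and only Lgalsl, which encodes a galectin-related protein that lacks lectin activity, passed the filter. It ran opposite to the members called: Lgalsl stood at 42.3, 29.3, 35.3 and 32.1 CPM in knockout replicates 1 to 4, against 63.4, 47.2, 44.4 and 52.7 CPM in WT replicates 1 to 4. Every knockout library lay below every WT library, as in 19.6% of all rows. The log2 fold change was -0.58 with an SE of 0.17 (edgeR adjusted p = 0.0213, exact permutation p = 0.0286). The call was lost without knockout replicate 2, 3 or 4 or WT replicate 1 and under upper-quartile or library-size scaling, under which the difference was -0.40, and with the close WT pairs summed (adjusted p = 0.0717). Lgals2 had at most 6 counts in a library and Grifin at most 4. Lgals12 had 0 counts in all 8, and 3 counts correspond to 0.0873 to 0.110 CPM, which covers counting error only.

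Of 23 tested enzymes that build or mask the glycans galectins bind, from 27 listed, 5 were higher and 3 lower in the knockout libraries, with a median log2 fold change of 0.13. Of all rows, 20.9% were higher and 20.6% lower, so the share of higher enzymes was near that background and the share of lower ones below it. Gcnt1, which starts the core branch of O-glycans on which N-acetyllactosamine is added, stood at 42.5 ± 7.37 CPM in the knockout libraries and 15.2 ± 2.22 CPM in WT (log2 fold change 1.48, SE 0.18, edgeR adjusted p = 0.000672). St3gal1, a sialyltransferase that caps the unbranched core, stood at 106 CPM against 57.0 CPM (0.90, SE 0.14). The galactosyltransferase genes split: B4galt5 rose by 0.72 (SE 0.14) and B4galt6 fell by 2.22 on the log2 scale (6.47 ± 0.747 CPM against 30.2 ± 8.54 CPM in WT). The edgeR adjusted p of these last 3 lay between 0.000354 and 0.00413. Of the other galactosyltransferase genes tested, B4galt1 was called higher (0.60, edgeR adjusted p = 0.00875) and C1galt1 lower (-0.63, adjusted p = 0.00538). B4galt2 (-0.32, adjusted p = 0.106) and B4galt3 (-0.26, adjusted p = 0.154) were not called. St6gal1, the sialyltransferase known to block binding of galectin-1, had 0 counts in all 8 libraries. Mgat5, which makes the branched N-glycans preferred by galectin-3, was at 32.6 CPM in the knockout libraries and 31.0 CPM in WT (log2 fold change 0.07, SE 0.14, edgeR adjusted p = 0.693). B4galt1, B4galt2, B4galt3, C1galt1, St6gal1 and Mgat5 were singled out after their values were seen.

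Among surface and secreted partners, 7 of 23 tested genes, from 28 listed, were higher and 1 lower, with a median log2 fold change of 0.03. In all, 8 of 23 is a smaller share than the 41.6% of all rows, while 7 of 23 higher lies above the 20.9%. Without knockout replicate 1 the counts were 10 higher and 4 lower. Col6a1, a collagen VI chain of the kind bound by the Lgals3bp protein, stood at 55.9 ± 6.78 CPM in the knockout libraries and 9.21 ± 2.54 CPM in WT (log2 fold change 2.60, SE 0.21, edgeR adjusted p = 0.000183). Cd63, a tetraspanin of late endosomes, stood at 508 ± 87.7 CPM against 266 ± 20.7 CPM, and Col5a1 at 310 CPM against 125 CPM. Mertk, a phagocytic receptor for which galectin-3 is a reported ligand, stood at 6.22 ± 2.35 CPM against 1.65 ± 0.408 CPM. The edgeR adjusted p of these last 3 lay between 0.00261 and 0.00287. Havcr2, which encodes the galectin-9 receptor TIM-3 and was named after its value was seen, was at 3.31 ± 0.478 CPM in the knockout libraries and 0.273 ± 0.246 CPM in WT (3.58, SE 0.71, edgeR adjusted p = 0.00457). The abundant glycoprotein genes Lamp1 (-0.22), Itgb1 (-0.20) and Cd44 (0.03), which encode common galectin ligands and were also chosen after the fact, did not pass, with edgeR adjusted p of 0.374 or more.

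Of 20 tested intracellular partners and genes of the response to damaged endomembranes, from 21 listed, 1 was higher and 4 were lower, with a median log2 fold change of -0.12. In all, 5 of 20 is a smaller share than the 41.6% of all rows, and 4 of 20 lower is close to the 20.6%. Without any one of knockout replicates 2, 3 and 4 or WT replicates 1 and 4, and with the replicate block, the lower genes numbered 2. They also numbered 2 under the filter of at least 5 CPM in 4 libraries, with the close WT pairs summed and at an adjusted p under 0.01. Under upper-quartile or library-size scaling, 2 genes were higher and 2 lower. Sqstm1, the autophagy receptor p62, rose to 758 ± 18.1 CPM in the knockout libraries, against 304 ± 76.4 CPM in WT (log2 fold change 1.32, SE 0.20, edgeR adjusted p = 0.00156). Gemin4, a splicing-complex partner of galectin-1 and galectin-3, fell by 0.76 (SE 0.14, adjusted p = 0.00305). Nras, a Ras gene, fell by 0.84 (SE 0.19, adjusted p = 0.00769). Pdcd6ip, which encodes the membrane-repair adaptor ALIX, was at 258 CPM against 418 CPM (-0.70, adjusted p = 0.0375), a call lost without knockout replicate 2, 3 or 4 or WT replicate 1 or 4. That call was also lost under upper-quartile or library-size scaling, the filter of at least 5 CPM in 4 libraries, the replicate block and the close WT pairs summed (adjusted p between 0.0534 and 0.0774). Trim16, which encodes a ligase that works with galectin-3 at damaged lysosomes, was singled out after its value was seen and did not pass (-0.18, adjusted p = 0.451).

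**Figure D5:**
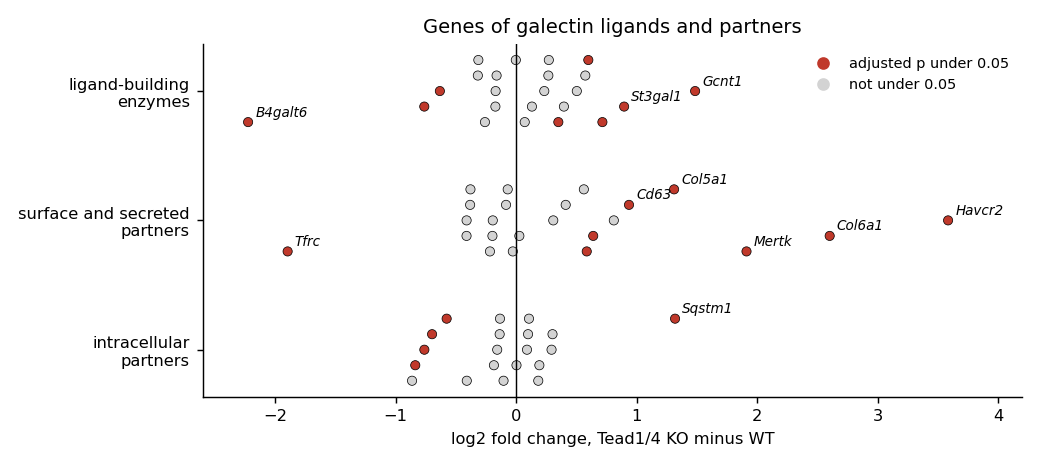
Log2 fold change (Tead1/4 KO minus WT) of each tested gene of 3 lists, the enzymes that build or mask galectin ligands, the surface and secreted partners and the intracellular partners, with red points for an edgeR adjusted p under 0.05. Points fall on both sides of 0 in each list, from B4galt6 at -2.22 to Havcr2 at 3.58.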

How the data were processed

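RNA from 8 CT26 libraries was sequenced. The authors deposited raw counts per gene in 2 tables with identical values, of which 1 was used. HISAT2, StringTie and GRCm38 are named in the submitters' processing notes. Neither the counting program nor its use of strand is stated there or in the labels. The table has 22036 annotated rows, of which 22022 were found in GENCODE M21 (GRCm38), and 4606 unannotated rows. That annotation gave coordinates and exon lengths, and promoters came from RefSeq (GRCm38.p6).

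Genes were filtered with filterByExpr (minimum count 10, minimum total 15), scaled by TMM and tested with edgeR 4.0.16 (R 4.3.3; glmQLFit, glmQLFTest) with no covariates and Benjamini-Hochberg adjustment over all rows tested. The fit was tested on simulated data. SE is the log2 fold change divided by the square root of F. Alternatives used DESeq2 1.42.0, limma 3.58.1 and other scalings, filters and library sets. No 2 libraries of a genotype agreed within counting noise (chi-square per degree of freedom 34.7 to 257), so none was taken as a repeat deposit and each entered as 1 sample. This does not show that they are independent: WT replicates 1 and 4 (34.7) and 2 and 3 (35.0) were closer than the other WT pairs (201 to 242), and the p-values are too small if such a pair shares a culture. Same-numbered libraries did not deviate together (correlations of -0.0445 to 0.000203), so numbers were not treated as pairs.

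The members and gene lists were chosen with earlier results of these data known. Named genes are the members, Tead1 and Tead4, the 4 nearest profiles of members changed at least 2-fold, and the 4 list members with the smallest p among those called. Others are marked. One planned promoter pattern is not reported here.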

Additional observations from a re-analysis of the deposited data

Results flagged for a closer look

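Among 20 groups of 4 libraries (10 genes in 2 genotypes), 2 held a library far from the other 3, where chance alone gives about 1 in 20. Both are knockout replicate 1. For Lgals1 it stood at 2876 CPM, with the other knockout libraries at 1104 to 1288 CPM, and the gap made up 0.896 of the group's range. For Lgals9 it stood at 125 CPM, with the others at 77.8 to 85.1 CPM, and the gap made up 0.845 of the range. Both shares exceed Dixon's critical value for 4 samples.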

How the results depend on the processing

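Lgals4 kept its call in all 8 fits with 1 library left out and in the 10 other settings that gave it a value (adjusted p at most 0.0130), as the filter of at least 5 CPM in 4 libraries removed it. Lgals3, Lgals9 and Lgals1 were called in none of the settings. Lgals1 turned negative with the replicate block (-0.018) and had a range of -0.36 to 0.25 with 1 library left out. With WT replicates 1 and 4 summed and 2 and 3 summed, since these pairs of libraries were the closest (chi-square per degree of freedom 34.7 and 35.0), 1 member was called. Lgals3bp was then at 0.62 (adjusted p = 0.0729), Lgals7 at 1.04 (0.0545) and Lgals8 at 0.49 (0.0923). Of 14382 rows tested, 3134 (21.8%) were called, with 0 in the list of other galectins, 5 surface partners and 3 intracellular partners. An adjusted p under 0.01 left 1 member, with Lgals3bp (0.65), Lgals7 (1.08) and Lgals8 (0.53) not called. That threshold left 2736 rows (20.6%), 0 other galectins, 5 surface and 3 intracellular partners. The replicate block left 4683 rows (35.3%) and 3 members called, with Lgals8 at 0.53, and 3 intracellular partners. None of the 8 libraries correlated best with its own number. Upper-quartile factors or library size only gave 0 other galectins, and the stricter filter gave 3 intracellular partners. With 1 library left out, 2 to 4 members were called, Lgals7 lay between 0.84 and 1.31 and Lgals8 between 0.43 and 0.64. The same fits called 0 to 1 other galectins, 8 to 14 surface partners, 3 to 6 intracellular partners and 3809 to 6829 rows (28.5% to 49.4%). With the longest transcript as the length, the share of Lgals4 in WT was 0.00728%. The causes of these changes were not tested. Counts of 3 to 11 per WT library limit the precision of the Lgals4 ratio.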
